A study of Homo sapiens with 12 samples.

Results

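The 33 genes described here are the transcription factor ATF4, other factors and effectors of the integrated stress response, and the enzymes and transporters that supply amino acids and one-carbon units. They were taken by symbol from a list that was drawn up with earlier results of these data known, and each symbol was found once among the 58884 genes of the count table. The list holds 14 transcription factors and stress effectors, 12 amino acid and one-carbon enzymes and 7 amino acid transporters. Of the 33, 31 passed the filter on low counts in U2932 and 29 in TMD8.

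RNA was sequenced from U2932 and TMD8, cell lines of diffuse large B-cell lymphoma (DLBCL) that carry no engineered change according to their labels (genotype WT). Cells received 20 µg/mL of rituximab (R), ofatumumab (OF) or a human IgG1 isotype antibody for 4 h, with 2 libraries for each of the 6 conditions. R and OF are antibodies against CD20, the B-cell surface protein encoded by MS4A1, and the isotype antibody served as the control in every comparison below. The 2 replicates of a line were cultures of that line kept apart for a week, so they are not independent patients or lines.

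In the integrated stress response, kinases that sense amino acid shortage, protein misfolding, haem deficiency or double-stranded RNA phosphorylate the translation factor eIF2. General translation then slows, whereas ATF4 mRNA is translated more, and ATF4 binds DNA with CEBP-family partners at genes for amino acid synthesis, transport and feedback control. ATF4 protein is therefore set largely at translation, which RNA sequencing does not measure. Proliferating B cells and lymphomas draw on the same serine, one-carbon, cystine and glutamine supply for nucleotides and glutathione.

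The libraries held 15440226 to 27110612 counts, of which the 33 genes took 0.396% to 0.484% in U2932 and 0.326% to 0.380% in TMD8. All 5 B-cell markers checked (MS4A1, CD79A, CD79B, PAX5 and CD22) passed the filter in both lines. Their summed level was 1861 to 1882 CPM (counts scaled to library size) with isotype and 2780 to 2989 CPM with R or OF in U2932, and 2271 to 2277 against 2914 to 3431 CPM in TMD8. The sum thus rose with the antibodies as many members did, but the markers did not all move alike. With either antibody in either line, 4 of the 5 were higher than with isotype and PAX5 was lower. In U2932, PAX5 had 288 and 267 CPM with isotype and 239 and 202 with R. The part of these markers in the results was not tested. The 10 markers of other cell types summed to 30.6 to 39.4 CPM in U2932, of which the epithelial marker EPCAM held 28.6 to 37.3, and to 2.47 to 7.35 CPM in TMD8. The T-cell markers CD3D and CD2 had 0 or 1 count in each library. In TMD8, culture 2 of OF and of isotype stood apart, with 3.73% and 3.99% of counts on mitochondrial genes against 5.70% to 6.23% in the other TMD8 libraries, and 7.78% and 7.05% on ribosomal protein genes against 10.9% to 11.8%. In U2932, ribosomal protein genes held 4.90% to 5.24% with isotype and 6.69% to 7.27% with R or OF.

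Promoters were read for the members because dimers of ATF4 and CEBP factors bind a known sequence, the CEBP-ATF response element, searched here as TGATGNAA. RefSeq promoters (250 bases before to 50 after an annotated start of a gene, GRCh38.p14) were at hand for 28 of the 33 members, for some at several starts. PYCR1, PSPH, SHMT2, SLC7A11 and NUPR1 had none. TGATGNAA stood on either strand in promoters of 9 of these 28 members (ATF3, MTHFD1L, ASNS, SLC3A2, SLC38A1, SLC7A1, CHAC1, CEBPG and SLC1A5). Counted per promoter, that is 11 of their 48, against 1270 of all 35116 promoters, or 3.62%. Promoters of the same gene can overlap, and the matching promoters of MTHFD1L hold the same site. The 11 are therefore not separate matches. The cAMP response element TGACGTCA, a sequence that TGATGNAA cannot match on either strand, stood in the promoter of 1 member, PPP1R15A, and in 1.85% of all promoters. A match of letters is a description and not evidence of binding. Shown are the 6 of the 9 with the lowest p-values for R against isotype in U2932, lowest first, with the motif in capitals. In CHAC1 it lies on the opposite strand.
CHAC1 promoter, chr15:40953221-40953520, plus strand: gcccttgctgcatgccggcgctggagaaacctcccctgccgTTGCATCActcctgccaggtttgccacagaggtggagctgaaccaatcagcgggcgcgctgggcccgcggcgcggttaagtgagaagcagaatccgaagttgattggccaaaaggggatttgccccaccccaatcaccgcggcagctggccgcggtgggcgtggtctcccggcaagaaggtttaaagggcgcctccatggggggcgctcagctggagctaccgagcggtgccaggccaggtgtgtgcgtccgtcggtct
SLC38A1 promoter, chr12:46266467-46266766, minus strand: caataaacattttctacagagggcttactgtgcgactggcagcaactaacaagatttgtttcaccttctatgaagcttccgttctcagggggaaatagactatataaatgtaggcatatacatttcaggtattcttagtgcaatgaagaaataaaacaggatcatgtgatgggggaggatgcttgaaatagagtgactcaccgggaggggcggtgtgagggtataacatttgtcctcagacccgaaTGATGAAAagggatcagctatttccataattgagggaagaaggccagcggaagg
MTHFD1L promoter, chr6:150866083-150866382, plus strand: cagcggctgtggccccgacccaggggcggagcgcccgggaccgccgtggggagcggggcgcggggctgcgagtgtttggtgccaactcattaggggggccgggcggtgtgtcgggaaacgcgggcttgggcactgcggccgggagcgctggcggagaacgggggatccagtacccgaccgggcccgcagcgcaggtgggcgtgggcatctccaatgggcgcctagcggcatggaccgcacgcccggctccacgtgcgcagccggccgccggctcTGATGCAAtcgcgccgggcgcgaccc
SLC1A5 promoter, chr19:46784765-46785064, minus strand: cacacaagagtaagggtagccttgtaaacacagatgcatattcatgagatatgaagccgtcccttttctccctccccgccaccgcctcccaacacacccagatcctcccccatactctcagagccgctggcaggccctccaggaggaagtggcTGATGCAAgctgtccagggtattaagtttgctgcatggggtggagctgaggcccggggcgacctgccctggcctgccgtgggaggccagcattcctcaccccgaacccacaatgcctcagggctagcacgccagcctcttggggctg
SLC7A1 promoter, chr13:29595639-29595938, minus strand: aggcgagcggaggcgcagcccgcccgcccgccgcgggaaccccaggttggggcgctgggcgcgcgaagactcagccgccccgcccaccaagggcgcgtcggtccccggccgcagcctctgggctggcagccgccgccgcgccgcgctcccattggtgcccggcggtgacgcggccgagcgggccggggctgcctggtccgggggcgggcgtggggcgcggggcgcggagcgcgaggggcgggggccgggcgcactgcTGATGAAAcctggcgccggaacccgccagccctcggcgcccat
ASNS promoter, chr7:97872359-97872658, minus strand: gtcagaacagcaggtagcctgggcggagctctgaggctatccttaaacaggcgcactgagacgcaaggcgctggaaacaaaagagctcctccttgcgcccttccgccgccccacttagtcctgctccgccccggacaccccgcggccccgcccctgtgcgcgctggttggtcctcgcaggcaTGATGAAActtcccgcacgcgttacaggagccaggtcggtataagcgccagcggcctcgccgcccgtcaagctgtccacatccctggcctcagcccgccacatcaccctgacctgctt
Positions are counted from the annotated start of the printed promoter. The motif starts 209 bases before it in CHAC1, 97 in SLC1A5, 68 in ASNS and 4 in SLC38A1. It lies after that start in MTHFD1L and SLC7A1. For other annotated starts of MTHFD1L it lies 129 and 90 bases before. SLC1A5, SLC38A1, ASNS and MTHFD1L also have promoters at other starts that hold no match.

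Levels under the isotype antibody came first, since they set how well each member could be measured. On a per-length scale (CPM per kilobase of the longest transcript, mean ± SD of 2 libraries), ATF4 was the highest member in U2932 at 285 ± 5.42 and the second in TMD8 at 177 ± 40.3. ATF5, a related factor that is also under translational control, was second in U2932 at 145 ± 1.64 and first in TMD8 at 334 ± 5.95. PYCR1, the last enzyme of proline synthesis, followed in U2932 at 140 ± 14.7, and in that line ATF5, PYCR1 and the glutamine transporter SLC1A5 at 122 ± 17.8 lay close together. At the other end were ASNS, SLC7A11 and CHAC1, at 0.609 ± 0.217, 0.830 ± 0.157 and 0.849 ± 0.174 in U2932, levels that did not differ beyond their spread. NUPR1, a small stress-induced chromatin protein, had 1 count and STC2, a secreted glycoprotein, 1 count over all 12 libraries, and neither was tested. ASNS, which encodes asparagine synthetase and is a textbook ATF4 target, had 254 counts in all, whereas an annotated gene that shares 44.56% of its exonic bases on the same strand (ENSG00000284707) had 284. Reads that fall on both genes may have been left uncounted or split, so the ASNS values are uncertain.

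**Figure D1:**
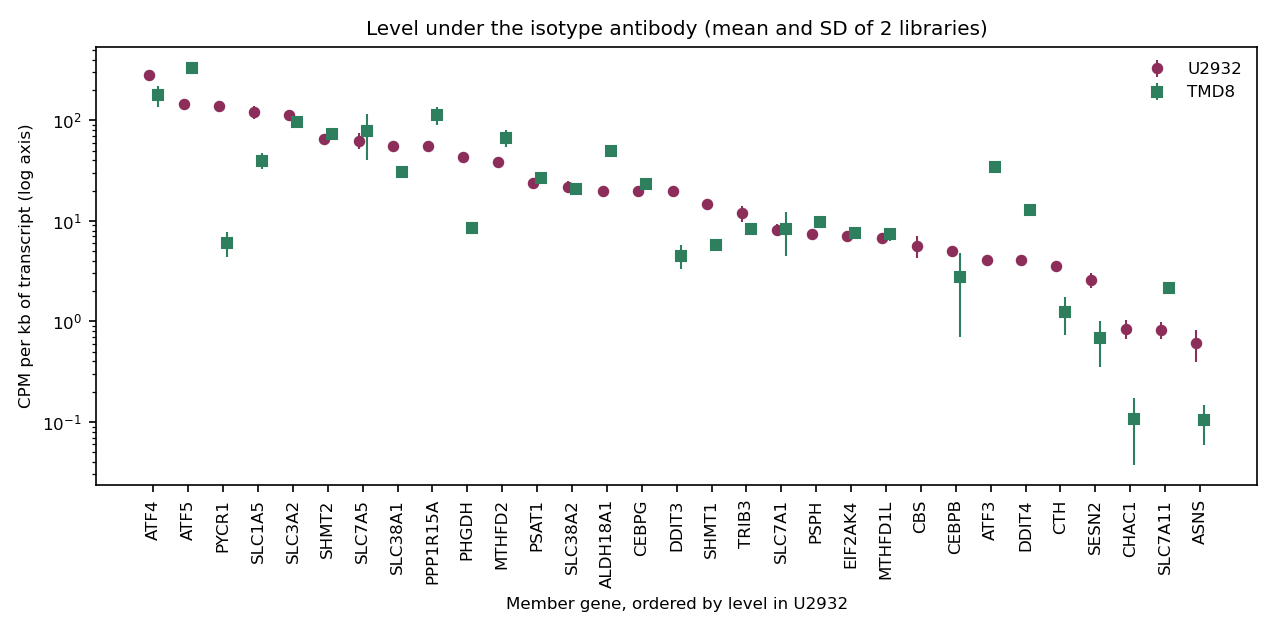
CPM per kilobase of transcript (log axis) of 31 members under the isotype antibody, with points at the mean and bars at the SD of 2 libraries per line. Circles (U2932) and squares (TMD8) part most for PYCR1 (140 against 6.05), and NUPR1, STC2 and CBS in TMD8, which had 1 count at most, are not drawn.

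Members differed widely in level between the lines under isotype, as did genes at large. With isotype, 15 of 31 members were higher in U2932 and 8 lower (edgeR quasi-likelihood test on all 12 libraries, called at a Benjamini-Hochberg adjusted p-value, q, under 0.10), against 33.2% of all genes tested that were higher and 33.7% lower. PYCR1 had 287 and 247 CPM in the U2932 isotype libraries and 9.31 and 13.7 CPM in those of TMD8, a log2 difference of 4.52 (SE 0.19, q = 6.2e-09). CBS, which makes cystathionine from homocysteine, had 398 and 282 counts in U2932 with isotype and 0 in every TMD8 library. Against a floor of 3 counts over the 2 TMD8 isotype libraries, CBS was at least 229-fold higher in U2932. A near-identical annotated copy of CBS exists, so its counts may be incomplete.

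The serine enzyme PHGDH was also higher in U2932, with a log2 difference of 2.34, as were DDIT3 (2.14), ASNS (2.44), CHAC1 (3.10), SESN2 (1.88), SLC1A5 (1.62), CTH (1.57) and SHMT1 (1.36). ATF4 itself was higher by 0.68 (SE 0.18, q = 0.00711), and CEBPB (0.91), SLC38A1 (0.86), TRIB3 (0.52) and SLC3A2 (0.23) were the other members higher in U2932. ATF3, a stress-induced repressor and activator, went the other way with 8.55 and 8.59 CPM in U2932 and 74.0 and 72.1 CPM in TMD8, a log2 difference of −3.09 (SE 0.19, q = 1.1e-07). Lower in U2932 were also DDIT4 (−1.67), SLC7A11 (−1.37), ALDH18A1 (−1.30), ATF5 (−1.20), PPP1R15A (−1.01), MTHFD2 (−0.82) and PSPH (−0.41). Levels of PSAT1, SHMT2, MTHFD1L, CEBPG, EIF2AK4, SLC7A5, SLC7A1 and SLC38A2 did not pass the test. With 2 lines, a difference between them belongs to these lines and cannot be told apart from their culture histories. Without culture 2 of the TMD8 isotype, the calls of some members changed.

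In U2932, R raised 19 of the 31 members tested and lowered 2, and OF raised 21 and lowered 2, whereas 10 and 8 did not pass. Those that rose included CHAC1, DDIT4, PSAT1, CTH and SLC7A11, each at least 1.86-fold higher with either antibody. ATF4 mRNA and PPP1R15A, the phosphatase subunit that reverses eIF2 phosphorylation, fell with either antibody. Of all 14635 genes tested, 16.8% rose and 17.4% fell with R, and 18.7% rose and 17.8% fell with OF. Past 1.5-fold, 8 members rose and 1 fell with R (all genes, 5.19% and 5.02%), and 13 rose and 1 fell with OF (5.90% and 5.21%). When all 12 libraries shared one estimate of the spread, 12 members rose and 1 fell with either antibody (all genes, 3.66% and 3.80% with R, 3.94% and 4.76% with OF). ATF4, CEBPB, SHMT2, ALDH18A1, SLC7A5, SLC7A1 and SLC1A5 then lost their calls with both antibodies, MTHFD1L with R, and SESN2, SLC3A2 and SLC38A1 with OF. The median log2 fold change of the members was 0.34 with R and 0.42 with OF, against −0.02 and 0.01 over all genes. Fewer cells of a type and less RNA per cell cannot be told apart in such bulk samples. R and OF were compared with the same isotype libraries, so their values are not independent.

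**Figure D2:**
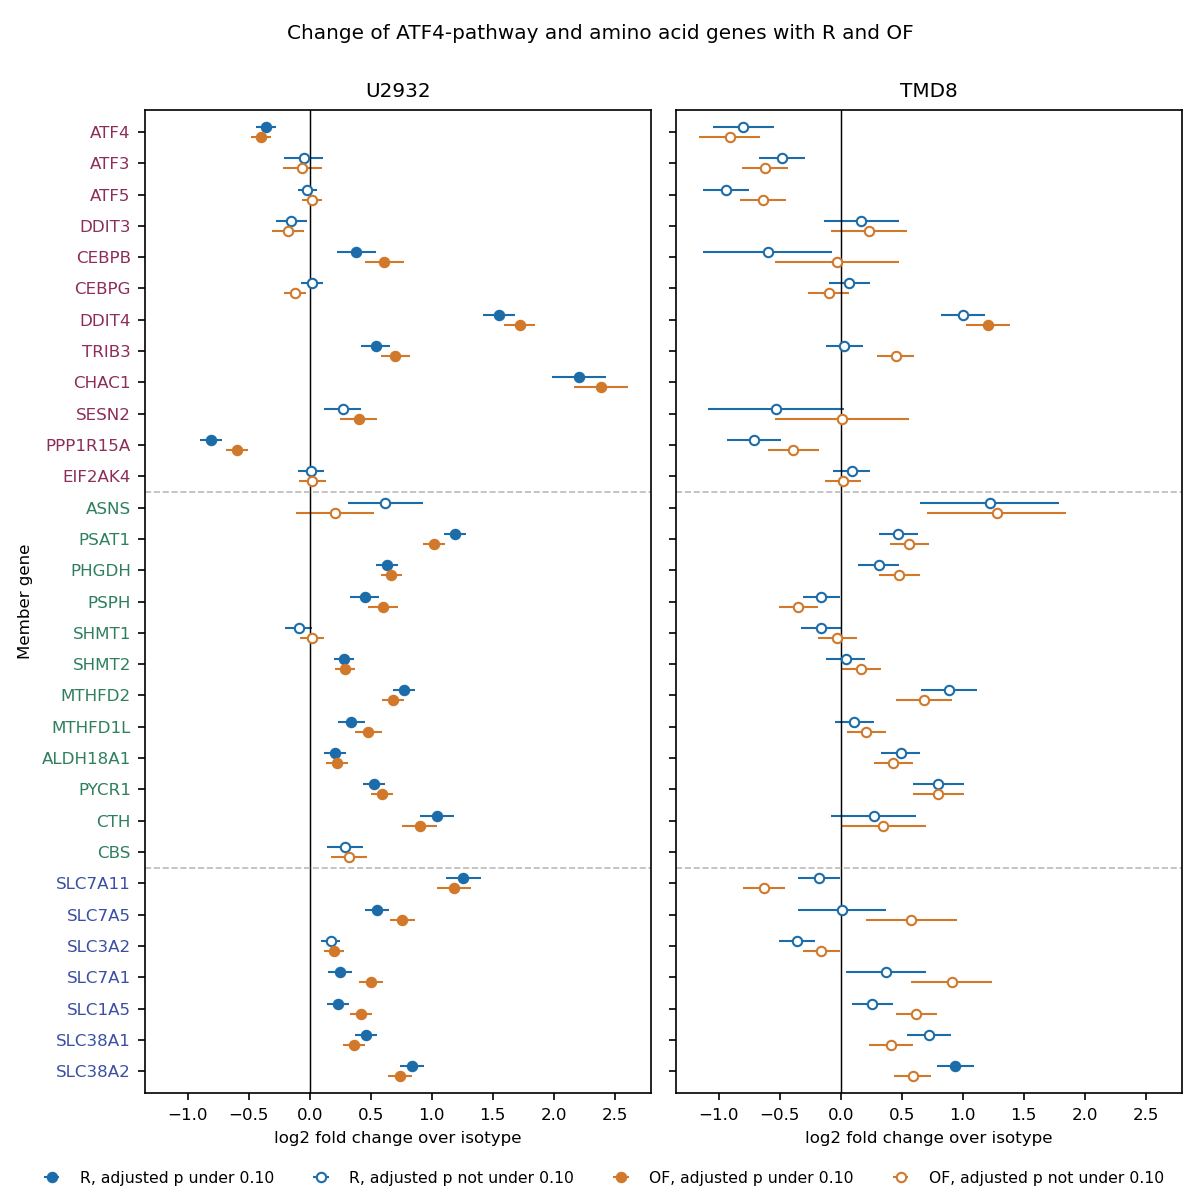
Log2 fold change over isotype (x axis) of each member tested (y axis) with R (blue) and OF (orange), with bars at the standard error; filled points passed an adjusted p under 0.10, and dashed lines part factors and effectors, enzymes, and transporters. In U2932 most enzymes and all transporters lie right of 0, with CHAC1 farthest at 2.21 and 2.39, and in TMD8 only DDIT4 with OF and SLC38A2 with R are filled.

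Among the 12 transcription factors and stress effectors tested, 4 rose and 2 fell with R, and 5 rose and 2 fell with OF. ATF4 (ENSG00000128272, chr22:39519695-39522685, plus strand) had 568 and 583 CPM with isotype, 433 and 462 with R, and 445 and 426 with OF. Every anti-CD20 library lay below both isotype libraries. The log2 fold change was −0.36 with R (SE 0.08, q = 0.00119) and −0.40 with OF (SE 0.08, q = 0.0005). In the fit of all 12 libraries ATF4 did not pass (q = 0.316 with R and 0.249 with OF).

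PPP1R15A had 133 and 131 CPM with isotype, 77.6 and 73.4 with R, and 86.5 and 87.5 with OF, again without overlap. It fell by 0.81 on the log2 scale with R (SE 0.09, q = 2.3e-07) and by 0.60 with OF (SE 0.09, q = 1.7e-05).

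CHAC1 (ENSG00000128965, chr15:40952962-40956519, plus strand), an enzyme that degrades glutathione, showed the largest change of any member. Its counts were low, at 30 and 41 with isotype, 108 and 160 with R, and 145 and 143 with OF. On the CPM scale these were 1.34 and 1.80, 6.06 and 8.47, and 8.46 and 8.05, so the anti-CD20 libraries all lay above isotype. The rise was 4.62-fold with R (log2 fold change 2.21, SE 0.22, q = 4.5e-08) and 5.25-fold with OF (2.39, SE 0.22, q = 1.2e-08).

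DDIT4 (REDD1), an inhibitor of mTORC1 signalling, had 7.12 and 7.01 CPM with isotype, 19.1 and 22.1 with R, and 22.2 and 24.4 with OF. It rose 2.92-fold with R (log2 fold change 1.55, SE 0.13, q = 3.6e-09) and 3.30-fold with OF (1.72, SE 0.13, q = 5.9e-10). An antisense gene, DDIT4-AS1, shares 41.16% of its exonic bases but had only 30 counts in all, against 5884 for DDIT4.

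TRIB3, a pseudokinase that restrains ATF4 and DDIT3, rose by 0.54 with R (SE 0.12) and 0.70 with OF (SE 0.12), from 33.5 and 26.1 CPM with isotype to 42.8 and 44.0 with R and 51.6 and 45.0 with OF. CEBPB, a dimer partner of ATF4, rose by 0.38 with R (q = 0.0774) and 0.61 with OF (q = 0.00417). Its R libraries straddled the isotype value of culture 1, at 10.2 and 15.4 CPM against 10.7 and 9.03, and the change with R was 0.05 without culture 2 of R and 0.26 without culture 2 of isotype, neither of which passed. SESN2, a leucine-sensing inhibitor of mTORC1, had a log2 fold change of 0.27 with R (q = 0.19) and rose by 0.40 with OF (q = 0.041).

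The other factors did not pass with either antibody. ATF3 had log2 fold changes of −0.05 with R and −0.06 with OF (SE 0.16 each), and ATF5 of −0.02 and 0.02 (SE 0.08 each). DDIT3 (CHOP), the pro-apoptotic factor downstream of ATF4, was at −0.15 and −0.18 (SE 0.13 each), with 21.8 and 20.1 CPM under isotype, 16.1 and 21.4 under R, and 19.0 and 17.8 under OF. DDIT3 shares 27.16% of its exonic bases with MARS1 on the opposite strand, and ATF5 shares 21.19% with NUP62. Whether counting used the strand is not given in the sources used here, so reads of these pairs may not be told apart. CEBPG, which pairs with ATF4, was at 0.02 and −0.12, and EIF2AK4 (GCN2), the kinase that senses uncharged tRNA, at 0.01 and 0.02.

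Of the 12 enzymes, 9 rose with R and 9 with OF, and none fell. All 3 enzymes that make serine from a glycolytic intermediate were among them. PSAT1 (ENSG00000135069, chr9:78297143-78330093, plus strand), the aminotransferase of the second step, had 50.0 and 53.2 CPM with isotype, 114 and 121 with R, and 105 and 103 with OF. No anti-CD20 library was below 103 CPM, and the rise was 2.28-fold with R (log2 fold change 1.19, SE 0.09, q = 7e-10) and 2.02-fold with OF (1.02, SE 0.09, q = 1.1e-08).

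PHGDH, the first step, had 149 and 126 CPM with isotype, 219 and 206 with R, and 214 and 221 with OF, with log2 fold changes of 0.63 and 0.67 (SE 0.09 each). PSPH, the last step, rose by 0.45 with R (q = 0.00487) and 0.60 with OF (q = 0.0003). Its annotated copy PSPHP1 held 14.89% as many counts, so reads shared by the 2 genes could be missing from either.

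Mitochondrial folate enzymes, which turn serine into glycine and formate, rose as well. MTHFD2 had 164 and 175 CPM with isotype, 276 and 302 with R, and 268 and 273 with OF, a log2 fold change of 0.77 with R (SE 0.09, q = 2.3e-07) and 0.68 with OF (SE 0.09, q = 1.7e-06). SHMT2, which feeds MTHFD2, rose by 0.28 and 0.29 (SE 0.08 each), from 233 and 217 CPM to between 272 and 275 CPM in the 4 anti-CD20 libraries. MTHFD1L, the step after MTHFD2, rose by 0.34 with R (q = 0.0168) and 0.48 with OF (q = 0.00111). SHMT1, the cytosolic counterpart of SHMT2, was at −0.09 with R and 0.02 with OF (q = 0.574 and 0.896).

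In proline synthesis, ALDH18A1, the first enzyme, rose by 0.21 with R (q = 0.0923) and 0.22 with OF (q = 0.068), and PYCR1, the last, by 0.53 and 0.59 (SE 0.09 each). PYCR1 had 287 and 247 CPM with isotype, 386 and 384 with R, and 391 and 409 with OF. In the transsulfuration route from homocysteine to cysteine, CTH, which releases cysteine, rose 2.05-fold with R (log2 fold change 1.04, SE 0.14, q = 3.8e-06) and 1.86-fold with OF (0.90, SE 0.14, q = 3.2e-05), from 7.03 and 7.58 CPM to between 13.2 and 16.1.

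CBS, the step before CTH, had log2 fold changes of 0.29 and 0.32 that did not pass (q = 0.168 and 0.112), but passed with the culture as a block (0.29 with R, q = 0.0738; 0.34 with OF, q = 0.0324), although same-numbered U2932 libraries hardly deviated together (r = −0.04 to 0.10). ASNS had 24 and 41 counts with isotype, 44 and 37 with R, and 30 and 28 with OF, and its log2 fold changes of 0.62 (SE 0.31) and 0.21 (SE 0.32) did not pass.

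Of the 7 transporters, 6 rose with R and 7 with OF. SLC7A11 (ENSG00000151012, chr4:138164097-138242349, minus strand), the cystine-glutamate exchanger that supplies cysteine for glutathione, had 6.94 and 9.07 CPM with isotype, 20.0 and 18.4 with R, and 18.4 and 17.8 with OF. The groups did not overlap, and the rise was 2.40-fold with R (log2 fold change 1.26, SE 0.14, q = 1.6e-07) and 2.27-fold with OF (1.18, SE 0.14, q = 5.9e-07). SLC3A2, the heavy chain that SLC7A11 and SLC7A5 share, changed far less, with a log2 fold change of 0.17 with R (q = 0.146) and a rise of 0.20 with OF (q = 0.082).

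SLC38A2, a sodium-coupled carrier of small neutral amino acids that is induced by their shortage, had 97.2 and 117 CPM with isotype, 183 and 201 with R, and 180 and 176 with OF. It rose by 0.84 with R (SE 0.10, q = 2.8e-07) and 0.74 with OF (SE 0.10, q = 2.1e-06). SLC38A1, a related glutamine carrier, rose by 0.46 and 0.36 (SE 0.09 each), from 412 and 484 CPM to between 547 and 620. SLC7A5 (LAT1), which imports leucine and other large neutral amino acids, had 321 and 248 CPM with isotype, 433 and 399 with R, and 474 and 489 with OF, and rose by 0.55 and 0.76 (SE 0.10 each).

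SLC7A1, a carrier of arginine and lysine, rose by 0.25 with R (q = 0.0714) and 0.50 with OF (q = 0.00054). SLC1A5 (ASCT2), which imports glutamine, rose by 0.23 with R (q = 0.0548) and 0.42 with OF (q = 0.00101). The isotype libraries of SLC7A5, SLC7A1 and SLC1A5 differed between cultures, and for SLC1A5 they were at 388 and 316 CPM, against 411 and 416 with R and 471 and 464 with OF.

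The smallest of these changes depended on single libraries. With R, ALDH18A1 passed only when all libraries or all but culture 2 of isotype were used. SLC1A5 lost its call without any 1 of the 6 libraries except culture 1 of isotype, and SLC7A1 lost it without culture 1 of R or OF, or culture 2 of OF or isotype (q up to 0.412). MTHFD1L did not pass with R without culture 2 of R (0.29, q = 0.147). With OF, SESN2, ALDH18A1, SHMT2 and SLC3A2 each lost the call without culture 1 and without culture 2 of OF, and SESN2 and SLC3A2 also without culture 2 of isotype. SLC38A1 lost it without culture 2 of OF (0.29, q = 0.117). Under the GC content correction CEBPB with R and SESN2 and SLC3A2 with OF no longer passed (q = 0.102, 0.132 and 0.528). Scaling by library size alone turned the direction of no member that had passed but ended the calls of CEBPB, ALDH18A1, SLC7A1 and SLC1A5 with R and of SESN2, ALDH18A1 and SLC3A2 with OF. Leaving out single libraries thus changed the calls of some members with either antibody. No share of all genes is given for those fits.

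**Figure D3:**
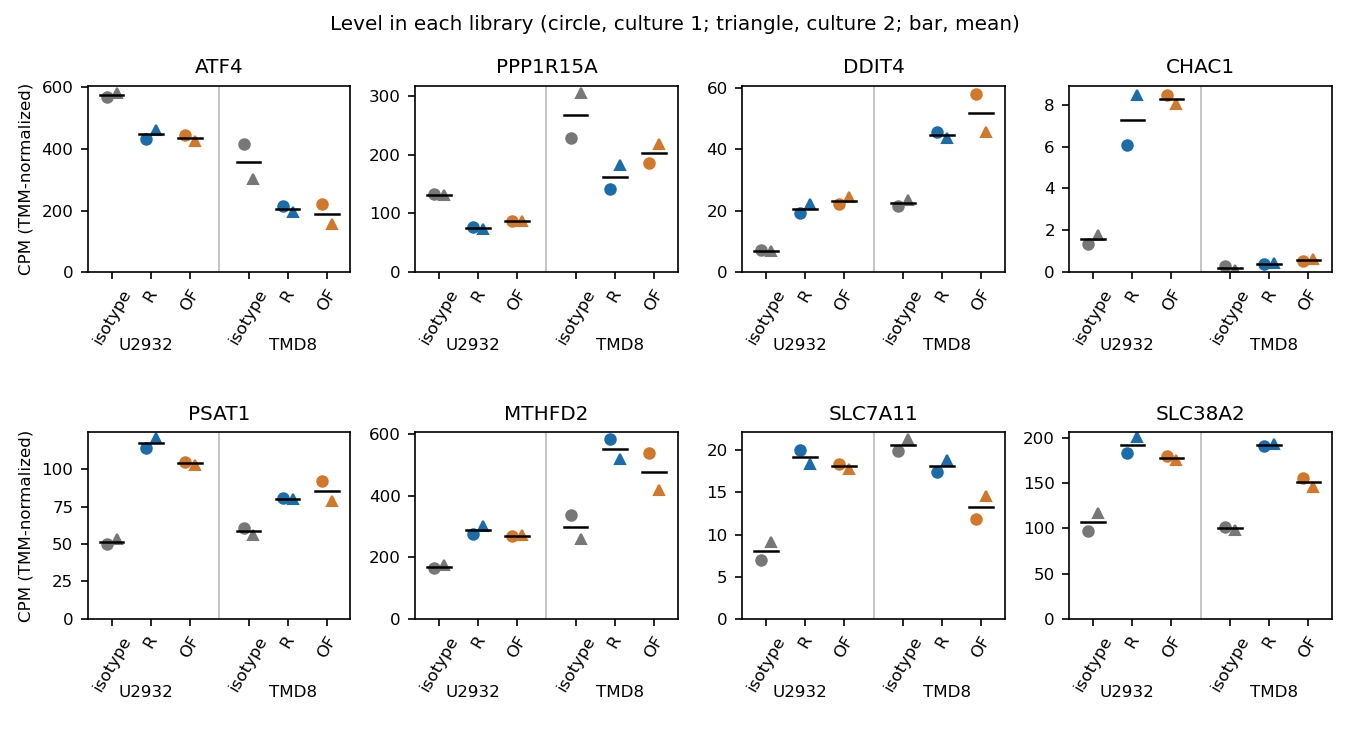
TMM-normalized CPM of 8 members in each of the 12 libraries (circles, culture 1; triangles, culture 2; bars, mean of 2), with isotype in grey, R in blue and OF in orange. ATF4 and PPP1R15A lie below isotype and the other 6 above it in U2932, whereas SLC7A11 in TMD8 runs from 19.9 and 21.4 CPM with isotype down to 11.9 and 14.6 with OF.

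In TMD8 the number of changes that passed depended on the fit. In the unpaired fit of the 6 TMD8 libraries, 1 of 29 members rose with R (SLC38A2) and 1 with OF (DDIT4), and none fell. Of all 14227 genes tested, 0.401% rose and 0.246% fell with R, and 0.471% and 0.344% with OF. At an unadjusted p under 0.05, 12 members differed with R (15.9% of all genes) and 14 with OF (14.1%). DESeq2 called 5 of 28 members that rose and 2 that fell with R (all genes, 2.77% and 1.91%), and 1 and 1 with OF (1.98% and 1.36%). In the unpaired fit of all 12 libraries, 7 of 31 members rose and 4 fell with R (all genes, 6.26% and 6.09%), and 10 rose and 4 fell with OF (4.91% and 5.02%). With the culture as a block, 7 members rose and 4 fell with R (all genes, 8.99% and 8.73%), and 12 rose and 4 fell with OF (7.45% and 6.87%). Same-numbered TMD8 libraries deviated together at r = 0.58 for OF and isotype but only at 0.18 for R and isotype. Without the 2 libraries that stood apart, 10 rose and 6 fell with R (all genes, 15.9% and 14.4%), and 12 rose and 4 fell with OF (12.5% and 10.9%). OF and isotype were then 1 library each, assumed to vary like the R pair that alone gave the spread. The median log2 fold change of the members was 0.09 with R and 0.23 with OF, against −0.02 and −0.01 over all genes.

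SLC38A2 had 102 and 98.5 CPM with isotype, 191 and 193 with R, and 156 and 146 with OF. It rose 1.92-fold with R (log2 fold change 0.94, SE 0.15, q = 0.094), and lay at 0.59 with OF (q = 0.163, and 0.0276 with the block). DDIT4 had 21.6 and 23.4 CPM with isotype, 45.7 and 43.6 with R, and 58.0 and 45.5 with OF, so it was the clearest change with OF, at 2.31-fold (1.21, SE 0.18, q = 0.0908). With R its log2 fold change of 1.00 just missed the limit (q = 0.102, and 0.00771 with the block). For either gene the anti-CD20 libraries all lay above isotype. Each unpaired call was lost without any single one of 5 libraries, and SLC38A2 kept it only without culture 1 of isotype (q = 0.0811), DDIT4 only without culture 2 of isotype (q = 0.0703).

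ATF4 in TMD8 had 416 and 301 CPM with isotype, 214 and 197 with R, and 222 and 158 with OF. The isotype libraries lay far apart but above all 4 others, and the log2 fold change was −0.80 with R (SE 0.25, q = 0.204) and −0.91 with OF (SE 0.25, q = 0.182). With the block ATF4 fell by 0.77 with R (q = 0.0174) and by 0.91 with OF (q = 0.0117). ATF5 had 683 and 701 CPM with isotype, 374 and 344 with R, and 489 and 392 with OF, with log2 fold changes of −0.94 (q = 0.113) and −0.64 (q = 0.206). Blocked, these were −0.94 (q = 0.00971) and −0.65 (q = 0.0345). ATF3 was at −0.48 with R and −0.62 with OF (q = 0.282 and 0.21), and blocked it passed at −0.49 and −0.64 (q = 0.0492 and 0.0249).

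PPP1R15A had 228 and 305 CPM with isotype, 141 and 183 with R, and 186 and 218 with OF, with log2 fold changes of −0.71 (q = 0.196) and −0.39 (q = 0.469). The block brought the change with R past the limit (−0.71, q = 0.0158) but not that with OF (−0.38, q = 0.11). TRIB3 was at 0.03 with R and 0.45 with OF (q = 0.951 and 0.267), and only the latter passed with the block (0.45, q = 0.0725). DDIT3 (0.17 and 0.23), CEBPB (−0.60 and −0.03), CEBPG (0.07 and −0.10), SESN2 (−0.53 and 0.01) and EIF2AK4 (0.09 and 0.02) did not pass in either fit. CHAC1 was below the filter in the fits of TMD8 alone, with 5 and 3 counts with isotype, 6 and 7 with R, and 8 and 10 with OF. In the fit of all 12 libraries it was tested, and was among the 10 members that rose with OF in TMD8, on these few counts.

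Among the enzymes, MTHFD2 had 339 and 260 CPM with isotype, 585 and 519 with R, and 540 and 418 with OF. Its log2 fold changes were 0.89 with R (SE 0.23, q = 0.153) and 0.68 with OF (SE 0.23, q = 0.253), and with the block they passed at 0.90 (q = 0.00946) and 0.68 (q = 0.0256). PYCR1, at 9.31 and 13.7 CPM with isotype and 19.3 to 20.8 CPM in the other 4 libraries, had log2 fold changes of 0.80 with each antibody that passed with the block (0.81 each, q = 0.024 and 0.0276). PSAT1 was at 0.47 and 0.56 (q = 0.232 and 0.196), and ALDH18A1 at 0.49 and 0.43 (q = 0.213 and 0.296). With the block, PSAT1 had q = 0.0485 with R and 0.0319 with OF, and ALDH18A1 0.0521 and 0.0859. PHGDH was at 0.31 with R and 0.48 with OF, of which the latter passed with the block (0.48, q = 0.0882).

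PSPH (−0.16 and −0.35), SHMT1 (−0.16 and −0.03), SHMT2 (0.04 and 0.17), MTHFD1L (0.11 and 0.21), CTH (0.27 and 0.35) and ASNS (1.22 and 1.28, SE 0.57 each) did not pass in either fit. ASNS rested on 3 and 9 counts with isotype, 12 and 7 with R, and 11 and 8 with OF. The gene that shares its exons (ENSG00000284707) went the other way, with 18 and 15 counts, 4 and 1, and 7 and 10. Whether reads moved between these genes was not tested.

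The transporters split in TMD8. SLC38A1 was at 0.72 with R and 0.41 with OF (q = 0.146 and 0.36), and passed with the block (0.72, q = 0.0158; 0.41, q = 0.0938). SLC7A5 (0.01 and 0.58), SLC7A1 (0.37 and 0.91) and SLC1A5 (0.26 and 0.62) did not pass in the unpaired fit of TMD8 alone. With the block all passed with OF, at 0.61 (q = 0.0793), 0.94 (q = 0.0295) and 0.62 (q = 0.0366), and none with R. In the unpaired fit of all 12 libraries, SLC7A1 and SLC1A5 rose with OF, whereas SLC7A5 did not pass. The cultures differed most for SLC7A5, at 235 and 477 CPM with isotype and 406 and 652 with OF. SLC7A11 went down, from 19.9 and 21.4 CPM with isotype to 17.4 and 18.8 with R and 11.9 and 14.6 with OF. Its log2 fold change was −0.18 with R (q = 0.647) and −0.63 with OF (q = 0.188), and with the block only the change with OF passed (−0.64, q = 0.0353). SLC3A2 was at −0.36 and −0.16 and did not pass in the unpaired fit of TMD8 alone or with the block. In the fit of all 12 libraries it fell with R.

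Between R and OF, none of the 31 members tested in U2932 and none of the 29 in TMD8 passed (all genes, 0.00683% and 0%), with DESeq2 too calling 0 members in either line. At an unadjusted p under 0.05, 3 members differed in U2932 and 2 in TMD8 (all genes, 5.10% and 4.09%), and with the culture as a block 8 of 29 in TMD8 (17.5%), none of which passed after adjustment. Without the 2 TMD8 libraries that stood apart, which left OF with 1 library, SLC7A11 was higher with R than with OF (0.60, q = 0.0431) and ATF5 lower (−0.45, q = 0.0116), against 2.14% of all genes that were higher and 1.86% that were lower. Log2 differences of R over OF ran from −0.25 (SLC7A1, SE 0.10) to 0.40 (ASNS, SE 0.31) in U2932 and from −0.57 (CEBPB, SE 0.53, and SLC7A5, SE 0.37) to 0.45 (SLC7A11, SE 0.18) in TMD8. CHAC1, the member that changed most in U2932, differed by −0.19 (SE 0.18) between R and OF there. A difference that misses the limit with 2 libraries each does not show that the antibodies act alike.

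Whether a member changed differently in the 2 lines was tested as the interaction of antibody and line over all 12 libraries. SLC7A11 was the one member that passed, with a log2 difference between lines of 1.45 with R (SE 0.23, q = 0.0511; 0.321% of all genes passed) and 1.82 with OF (SE 0.23, q = 0.027; 0.105% passed). Under isotype its level was lower in U2932 than in TMD8, whereas with R the CPM were 20.0 and 18.4 in U2932 against 17.4 and 18.8 in TMD8. The interaction with R lost its call without any 1 of the U2932 libraries or either R library of TMD8 (1.27 to 1.66, q = 0.136 to 0.311). That with OF lost it without either OF library of U2932 or culture 1 of its isotype (1.64 to 1.84, q = 0.162 to 0.293).

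With the culture as a block, 5 members passed with R (6.04% of all genes) and 3 with OF (2.23%). SLC7A11 was again among them, at 1.45 with R (q = 0.00551) and 1.82 with OF (q = 0.00338). The others with R were ATF5 (0.93, q = 0.0122), PSAT1 (0.72, q = 0.0239), PSPH (0.61, q = 0.0728) and SLC3A2 (0.54, q = 0.0647), and with OF they were ATF5 (0.67, q = 0.0632) and PSPH (0.96, q = 0.0223). For ATF4 the interaction was 0.44 with R and 0.52 with OF (SE 0.26 each) and did not pass with or without the block. CHAC1 had 1.02 (SE 0.68) with R and 0.67 (SE 0.67) with OF, with large errors because of its few counts in TMD8. For CBS no interaction could be estimated, since TMD8 had no count.

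The lines share no library, so the direction of change can be set side by side. With R, 23 of the 29 members tested in both lines changed in the same direction (79.3%, against 63.5% of 12722 genes), and with OF 22 (75.9%, against 68.8%). Across these 29 genes the log2 fold changes of the lines correlated at r = 0.60 with R and 0.51 with OF, against 0.39 and 0.46 over all genes. Genes are not replicates and share libraries and depth, so this is a description.

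**Figure D4:**
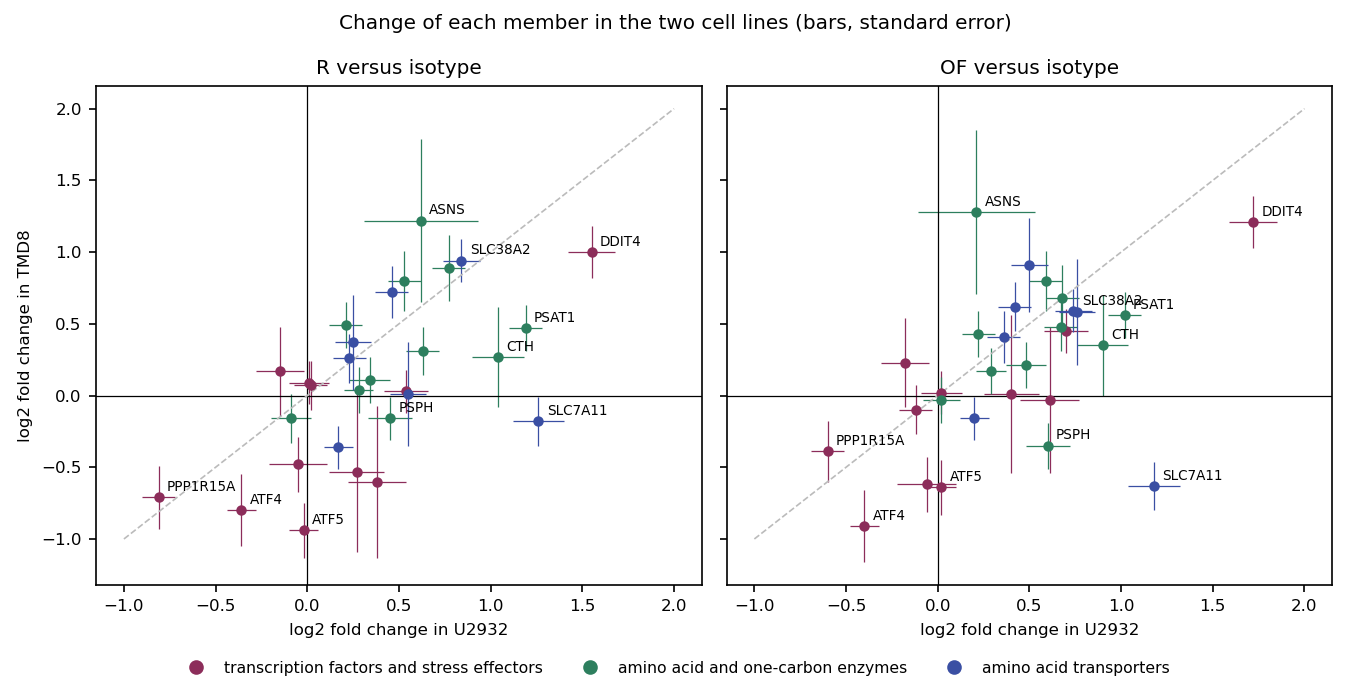
Log2 fold change over isotype in U2932 (x axis) against TMD8 (y axis) for the 29 members tested in both lines, for R (left) and OF (right), with bars at the standard error, colours by role and a dashed line of equal change. DDIT4 lies farthest right (1.55 in U2932 and 1.00 in TMD8 with R), ATF4 lies lower left, and SLC7A11 is the point that passed the test of a difference between lines. ASNS lies highest (1.22 with R and 1.28 with OF in TMD8), but it rested on 3 to 12 counts per TMD8 library and did not pass.

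Beyond the members, 5 further lists were described in the same fit, with lists and members chosen with earlier results of these data known. Of 16 genes of the eIF2 kinases and eIF2 machinery, 2 rose and 3 fell with R in U2932, and 3 rose and 4 fell with OF. These counts and those of the other lists in U2932 stand against 16.8% of all genes that rose and 17.4% that fell with R, and 18.7% and 17.8% with OF. EIF2AK3 (PERK), the eIF2 kinase of the endoplasmic reticulum, had 89.6 and 96.9 CPM with isotype, 57.8 and 60.9 with R, and 59.9 and 55.8 with OF, log2 fold changes of −0.65 and −0.68. IMPACT, an inhibitor of EIF2AK4, was at −0.55 and −0.63, and QRICH1, a transcription regulator of the unfolded protein response, at −0.34 and −0.32.

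Among 15 of 17 further ATF4 targets tested, 8 rose and 1 fell with R in U2932, with a median of 0.34, and 7 rose and 1 fell with OF. SLC6A9, a glycine transporter, had 1.39 and 0.920 CPM with isotype, 6.06 and 4.40 with R, and 6.19 and 4.67 with OF, log2 fold changes of 2.17 and 2.23 (SE 0.27 each). MAP1LC3B, a protein of autophagosomes, rose by 0.54 and 0.58, and EIF4EBP1, which holds back cap-dependent translation, by 0.55 and 0.44. Of 21 of 24 other enzymes of folate, proline and sulphur amino acid metabolism, 8 rose and 1 fell with R, and 8 rose and 3 fell with OF. They included AHCY, which makes homocysteine, at 0.57 and 0.68, and the mitochondrial folate enzyme ALDH1L2 at 0.80 and 0.63.

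Of 12 of 15 other amino acid transporters tested, 3 rose and none fell with R, and 4 rose and 1 fell with OF. SLC7A6, an exchanger that also pairs with SLC3A2, had 113 and 115 CPM with isotype and 157 to 181 in the other libraries, and rose by 0.60 and 0.54. SLC1A4, a neutral amino acid exchanger, rose by 0.26 and 0.42, and SLC36A4 rose by 0.36 with R and was at 0.29 with OF (q = 0.104; with the block, 0.073). Of 11 paralogs of members tested, 2 rose and 2 fell with R, and 2 rose and 5 fell with OF, with a median of −0.10 and 0.01. ATF6, a factor of the unfolded protein response, fell by 0.47 and by 0.50 and SESN3, a paralog of SESN2, by 0.41 and by 0.38, whereas ATF2 rose by 0.31 and 0.27. In TMD8 no gene of these 5 lists passed in the unpaired fit with either antibody. Of all genes, 0.401% rose and 0.246% fell there with R, and 0.471% and 0.344% with OF. With the block and R, 2 of 15 eIF2 genes, 3 of 14 targets and 5 of 22 enzymes rose. So did 1 of 11 transporters and 1 of 11 paralogs, whereas 1 target and 1 transporter fell (all genes, 8.99% and 8.73%). With the block and OF, 1, 3, 6, 1 and 0 rose, and 1 target and 2 paralogs fell (all genes, 7.45% and 6.87%).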

How the data were processed

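RNA of 12 libraries was sequenced, from 2 cultures of each line. The authors trimmed reads, aligned them to the human genome (GRCh38 per the labels) and deposited raw counts per Ensembl gene, with no normalization or filter. The submitters' processing notes name Trim Galore 0.6.0, STAR 2.7.0e and DESeq2 1.26.0. Annotation release and strand setting are not given in the sources used here. Every column was matched to a library by its label, and 0 columns were left unused. Symbols, positions and lengths came from GENCODE 29 (GRCh38), and 58876 of 58884 genes had a symbol.

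The model was edgeR 4.0.16 under R 4.3.3 (TMM, filterByExpr with a minimum of 10 counts, quasi-likelihood test), per line on 6 libraries with 1 mean per antibody, and on all 12 for interactions and lines under isotype. The Benjamini-Hochberg adjustment ran over all genes tested and gave q, the adjusted p-value, and calls needed q under 0.10. "Rose" and "fell" mean a call. Printed CPM use TMM factors of the 12 libraries, and SE is that of the log2 fold change. With 2 libraries per condition, the spread is known poorly and p-values measure only the spread between cultures of a line. Replicates differed beyond sampling noise, with a chi-square per degree of freedom of 2.42 to 106.

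Both cultures of a line were split before treatment according to the labels, and same-numbered libraries were taken to share a culture. Their deviations from the condition mean correlated between conditions at −0.04 to 0.10 in U2932. In TMD8 they correlated at 0.58 between OF and isotype, but at 0.18 between R and either of these. Pairing thus showed little in U2932 and for R in TMD8. The fit with the culture as a replicate block was given where it changed a call.

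Alternatives were DESeq2 1.42.0, RLE normalization, library size only, no filter, all 12 or only the 4 libraries compared, the block, a GC content correction (lowess, span 0.3), other limits, and fits without each library or without the 2 TMD8 libraries that stood apart. Steps were tested on simulated data. All members were named, and from each further list the 3 genes with the smallest p for R in U2932, except that 2 genes of the lists are not reported here. Members and lists were chosen with earlier results of these data known. Figures were drawn with Python 3.11.15 and matplotlib 3.10.9.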

Additional observations from a re-analysis of the deposited data

Results flagged for a closer look

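SLC7A11, the cystine-glutamate exchanger, differed between the lines in its change over isotype, by the test of the interaction itself. The log2 difference (U2932 minus TMD8) was 1.45 with R (SE 0.23, q = 0.0511) and 1.82 with OF (SE 0.23, q = 0.027), where q is the adjusted p-value of edgeR's quasi-likelihood test. In U2932 all 4 anti-CD20 libraries (17.8 to 20.0 CPM) lay above both isotype libraries (6.94 and 9.07), and in TMD8 all 4 (11.9 to 18.8) lay below (19.9 and 21.4). In TMD8 the change itself passed with neither antibody in the unpaired fit. Either interaction lost its call when certain single libraries were left out. R and OF share the isotype libraries, so these are not 2 independent results.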

How the results depend on the processing

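In U2932, one fit of all 12 libraries gave 12 members that rose and 1 that fell with R and the same numbers with OF, and a 1.5-fold limit 8 and 1 with R and 13 and 1 with OF. DESeq2, RLE, no filter, the 4 libraries compared, the block and the GC correction stayed within 1.5 times the counts. Library size alone moved the median of all genes to −0.12 with R in U2932 (TMD8, −0.16). In U2932 the share of higher calls went from 49.2% to 31.5% with R and from 51.3% to 36.1% with OF. The members' median there moved down as well, from 0.34 to 0.25 with R and from 0.42 to 0.33 with OF. In TMD8 with R the members' median turned to −0.04, and the share of higher calls went from 62.0% to 39.4%.

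In TMD8 members that rose with R numbered 5 by DESeq2, 0 by library size, 5 without a filter, 7 with all 12 libraries, 0 with 4, 7 with the replicate block, 5 with the GC correction, 8 with both, 0 at an adjusted p under 0.05 and 10 without the 2 libraries that stood apart. Those that fell numbered 2, 1, 3, 4 (12 libraries), 4 (block), 4 (block and GC) and 6 (2 libraries out). With OF, 0 rose by library size, 4 without a filter, 10 with all 12, 0 with 4, 12 with the block, 4 with GC, 11 with both, 0 under 0.05 and 12 with 2 libraries out. Those that fell numbered 1 by DESeq2, 1 without a filter, 4 with 12 libraries, 4 with the block, 5 with block and GC and 4 with 2 libraries out. Leaving out single libraries gave 0 to 3 that rose and 0 to 1 that fell with either antibody. R against OF in TMD8 changed with 2 libraries out, as given above. The shares of all genes stand above for DESeq2, all 12 libraries, the block and the 2 libraries left out. For the other settings no such share is given, so their counts are not a result about the members.

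Interactions with R numbered 5 by DESeq2, 3 by library size, 2 without a filter, 5 with the block, 2 with GC, 4 with both and 0 under 0.05 (0 to 4 without single libraries), and with OF 3 by DESeq2, 2 without a filter, 3 with the block, 2 with GC and 3 with both (0 to 2 without single libraries). Of all genes, 6.04% passed with the block for R and 2.23% for OF. For the other alternatives no share of all genes is given, so these interaction counts are not a result about the members. ATF5 with OF in U2932 passed at −0.15 with block and GC correction, whereas in the unpaired fit it was at 0.02 and did not pass. SLC7A1 between lines was 0.55 without TMD8 isotype culture 2 and −0.43 without culture 1. The cause was not tested. In TMD8, ASNS and CHAC1 rested on 3 to 12 counts per library.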
